A study of Mus musculus with 9 samples.

Results

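The genes of 4 transcription factors that specify and maintain insulin-producing beta cells, Pdx1, Mafa, Nkx6-1 and Pax4, were followed through chromatin immunoprecipitation sequencing (ChIP-seq) libraries of mouse islet cell lines. They were chosen by name. The 4 genes hold 7 of the 17641 windows in the deposited table of regions, with 2 windows each for Pdx1, Mafa and Nkx6-1 and 1 for Pax4. Called peaks within 5 kb of each gene were taken from the 6 deposited peak lists. The libraries came from 2 mouse tumour lines. AlphaTC1 makes glucagon, and its cells were collected on day 5 after they received an empty vector (2 libraries) or a short hairpin RNA against Smndc1 (2 libraries). BetaTC3 makes insulin and was left untreated (2 libraries). Smndc1 encodes a splicing factor related to SMN. All 6 used an antibody sold against trimethylated lysine 9 of histone H3 (H3K9me3), and each group had 1 input library that entered only through the authors' peak calling. Each group is a single immortal line, and neither separate cultures for the replicates nor the hairpin used in each knockdown library is given in the labels. A chromatin window measures no RNA, so the knockdown itself is not checked here. The p-values rest on the spread among these libraries alone, and that spread may be technical.

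Pdx1 is a homeodomain factor needed to form the pancreas, and in adult beta cells it activates the insulin gene. Mafa is a basic leucine zipper factor that binds the insulin promoter and appears late, as beta cells mature. Nkx6-1 is a homeodomain factor that keeps beta cell identity and holds the alpha cell program down. Pax4 is a paired homeodomain factor of endocrine progenitors that favours the beta over the alpha fate. Trimethylated H3K9 is known as a mark of silent heterochromatin.

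The libraries carried signal near many genes, and 65.5% of all windows lay within 1 kb of a gene start. Whether this is the distribution of the labelled mark was not tested. Of 21883 RefSeq protein-coding genes, 12192 (55.7%) had a called peak within 5 kb in all 6 lists. Summed over the listed markers, those of the labelled cell type carried the higher signal. The 7 of 9 listed beta cell markers with a window within 2 kb of the gene start (Ins1, Iapp, Slc2a2, G6pc2, Slc30a8, Npy and Ffar1) summed to 3594 to 3707 scaled reads in betaTC3 libraries, 526 to 573 with the empty vector and 575 to 600 with the knockdown. The 8 of 10 alpha cell markers summed to 4002 to 4139 with the empty vector and 3086 to 4102 with the knockdown. In betaTC3 they summed to 1239 to 1240, and Gcg, the glucagon gene, was at 0. Unlike the sums, the alpha cell markers Ttr and Gc were at 0 in both empty-vector libraries, and neither was at 0 in both betaTC3 libraries. Of markers of other pancreatic cells, Sox9 of duct cells (1 of 5 listed with a window) held 545 to 601 scaled reads with the empty vector and 3.99 to 4.76 in betaTC3, and Col1a1 of stromal cells (1 of 5) 69.2 to 78.1 and 16.8 to 33.3. The delta cell markers Sst and Rbp4 (2 of 4) summed to 236 to 271 with the empty vector and 244 to 280 in betaTC3. For the acinar markers Cela1 and Bhlha15 (2 of 6) the sums were 131 to 140 and 84.7 to 108. The part of other pancreatic cells in the results was not tested. Values are therefore given as signal of libraries labelled H3K9me3, with no statement on the histone mark behind them. A scaled read is a read in a window times 1 factor per library set by the authors, and libraries held 4530066 to 9924487 reads in windows. All member windows are 401 bp wide. Levels of different genes are thus read at equal width but at different distances from the gene start, and are compared only as a description.

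The promoters of Pdx1 and Nkx6-1 are shown because peaks covered both in betaTC3 and only the second in alphaTC1. RefSeq promoter sequence (GRCm38.p6, the build of the files) was matched for 2 of the 4 genes, and Mafa and Pax4 were not matched. Both lines give the 250 bases before the RefSeq start, 5′ to 3′ on the strand of the gene, with every CG dinucleotide in capitals. Pdx1 lies at chr5:147269847-147270096 on the plus strand, and Nkx6-1 at chr5:101664712-101664961 on the minus strand.
Pdx1: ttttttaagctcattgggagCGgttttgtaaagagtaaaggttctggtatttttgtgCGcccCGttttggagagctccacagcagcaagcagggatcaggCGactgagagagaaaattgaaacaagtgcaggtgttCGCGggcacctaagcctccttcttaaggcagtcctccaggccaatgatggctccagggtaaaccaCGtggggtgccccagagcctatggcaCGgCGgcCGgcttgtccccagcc
Nkx6-1: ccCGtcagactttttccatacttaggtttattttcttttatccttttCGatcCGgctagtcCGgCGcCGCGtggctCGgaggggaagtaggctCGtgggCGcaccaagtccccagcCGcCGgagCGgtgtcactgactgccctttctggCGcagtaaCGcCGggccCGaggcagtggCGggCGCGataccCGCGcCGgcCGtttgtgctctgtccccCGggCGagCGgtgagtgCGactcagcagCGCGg
The gene start in the deposited table lies 138 bp upstream of the RefSeq start of Pdx1 and 285 bp upstream of that of Nkx6-1. The Pdx1 stretch held 10 CG dinucleotides, more than in 62.2% of the 32851 RefSeq promoters of the same length, and that of Nkx6-1 held 30, more than in 94.1% (median of all promoters 6). The palindrome CACGTG, an E-box, occurred once in the Pdx1 stretch, with its first base 51 bp before the RefSeq start, and not in that of Nkx6-1. It is also 1 of the 3 matches to the wider motif CANNTG in Pdx1, and CACGTG occurs in 6.02% and CANNTG in 66.2% of all promoters. The homeodomain core TAAT, searched on both strands as TAAT and ATTA, was in neither stretch and is in 54.9% of promoters. In both betaTC3 lists a peak covered 100% of both promoters. In the 4 alphaTC1 lists peaks covered 100% of the Nkx6-1 promoter and 0% of the Pdx1 promoter.

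The first comparison set betaTC3 against alphaTC1 with the empty vector, lines that make different hormones. The windows inside Pdx1, Mafa and Pax4 carried signal in betaTC3 and little or none in alphaTC1, while the window inside Nkx6-1 carried a high signal in both lines. The start of Mafa lies outside its windows and held a narrow called peak in alphaTC1, described with the peaks. Of the 7 windows, 4 were higher in betaTC3 and 0 lower by limma (adjusted p below 0.05 over all windows), beside 22.1% of all 17641 windows higher, 33.2% lower and 55.2% in either direction. With each library centred on its median, 34.3% of windows were higher and 31.9% lower. The 4 were both windows of Pdx1, the window in Mafa and that of Pax4.

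Pdx1 had its stronger window inside the gene (chromosome 5, 147270320 to 147270720, ENSMUSG00000029644), with the window centre 561 bp downstream of the gene start. It held 1829 and 1840 scaled reads in the betaTC3 libraries, 5.30 and 0 in the empty-vector libraries, and 0 in both knockdown libraries. The betaTC3 level exceeded that of 99.2% and 99.8% of windows in the same library, and ranked 149th and 40th from the top. The 5.30 scaled reads with the empty vector are 4 reads, all in replicate 1. Pooled over both libraries the betaTC3 level was 863 times that with the empty vector (exact 95% counting interval 337 to 3168, adjusted p = 9.12e-05 by limma). The fitted difference in log2 was 9.51, 10.84 without empty-vector replicate 1 and 8.19 without empty-vector replicate 2, all of them called. The counting intervals pool the reads of both libraries, so they hold counting error alone and not the spread between libraries. They also take reads as independent, although PCR copies of 1 molecule cannot be recognised without identifiers. The intervals further take the values as raw reads, as do the limits given below against a floor of reads. Whether input reads were taken off is not known, and if they were, neither the intervals nor those limits hold.

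The other Pdx1 window lay upstream of the gene (chromosome 5, 147263951 to 147264351), with its centre at -5808 bp from the start. Distal enhancers upstream of Pdx1 are known to drive it in islets. This window held 31.9 and 39.0 scaled reads in betaTC3, 0 and 1.78 in the empty-vector libraries, and 5.97 and 2.80 after knockdown. The level in betaTC3 was a small part of that inside the gene, above only 19.6% and 21.2% of windows in the same libraries. The pooled ratio of betaTC3 to the empty vector was 33.1 (95% counting interval 8.87 to 278), with 2 reads behind the lower group (adjusted p = 0.000595 by limma). Its fitted log2 difference was 4.45, and 3.71 and 5.18 without empty-vector replicate 1 and replicate 2.

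Mafa followed the pattern of Pdx1 in the window inside the gene (chromosome 15, 75746583 to 75746983, ENSMUSG00000047591), centred 1445 bp from the start. It held 1726 and 1269 scaled reads in betaTC3, 11.9 and 0 with the empty vector, and 0 in both knockdown libraries. The 11.9 scaled reads are 9 reads in empty-vector replicate 1, the library that also held the reads at Pdx1. The pooled ratio of betaTC3 to the empty vector was 317 (95% counting interval 167 to 694, adjusted p = 0.000561 by limma). The fitted log2 difference was 8.69, and 10.53 and 6.84 without empty-vector replicate 1 and replicate 2. A second window assigned to Mafa lay downstream, centred 16525 bp from the start (chromosome 15, 75731503 to 75731903). There the empty-vector libraries held 51.6 and 49.7 scaled reads, the knockdown libraries 44.2 and 37.7 and the betaTC3 libraries 27.2 and 38.1. In this distal window the log2 difference of betaTC3 from the empty vector was -0.64 (95% interval -1.26 to -0.02), which did not pass (adjusted p = 0.0759 by limma).

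Pax4 had a single window at its start (chromosome 6, 28448907 to 28449307, ENSMUSG00000029706), centred 246 bp inside the gene. It held 49.5 scaled reads in each betaTC3 library, 0 in both empty-vector libraries, and 1.19 and 4.19 in the knockdown libraries. Against the floor of 3 reads per library the betaTC3 level was at least 14.9-fold higher than with the empty vector (adjusted p = 7.06e-05 by limma). Yet the betaTC3 level lay above only 26.2% and 25.1% of windows in those libraries. Pax4 thus carried a low level in the line where Pdx1 and Mafa ranked near the top.

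Nkx6-1 differed from the other 3 genes in the alphaTC1 signal of the window inside it. Its window inside the gene (chromosome 5, 101663977 to 101664377, ENSMUSG00000035187), centred 819 bp from the start, held 1068 and 1129 scaled reads in the empty-vector libraries, 698 and 952 after knockdown, and 1223 and 1135 in betaTC3. In each library it ranked above 88.1 to 95.1% of windows, and the betaTC3 libraries were the highest. The log2 difference of betaTC3 from the empty vector was 0.10 (95% interval -0.34 to 0.54), which did not pass (adjusted p = 0.667 by limma). With the libraries centred on their medians the difference was 0.28 and passed (adjusted p = 0.0205 by limma), as it did with edgeR and its own scaling (0.27, adjusted p = 0.0161) and with DESeq2 (0.33, adjusted p = 0.0105). The second Nkx6-1 window lay downstream of the gene (chromosome 5, 101656392 to 101656792), centred 8404 bp from the start. It held 14.6 and 11.5 scaled reads in the empty-vector libraries, 27.5 and 26.6 after knockdown, and 5.59 and 16.2 in betaTC3. BetaTC3 and the empty vector overlapped there (log2 difference -0.39, 95% interval -1.52 to 0.73, adjusted p = 0.510 by limma).

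**Figure D1:**
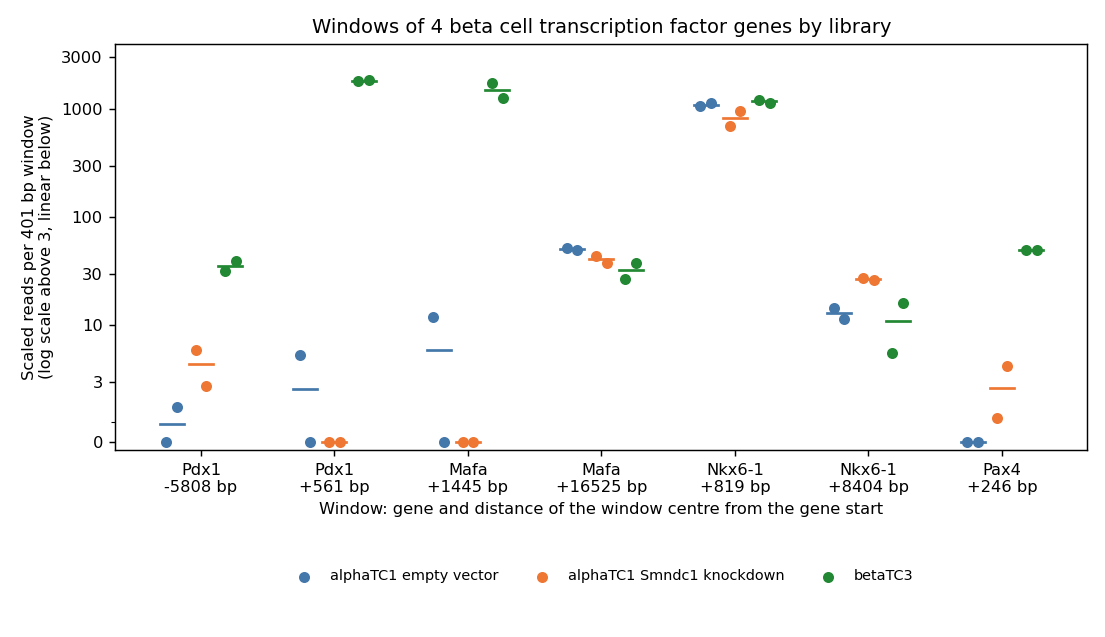
Scaled reads per 401 bp window (vertical axis, logarithmic above 3 and linear below) for the 7 windows of Pdx1, Mafa, Nkx6-1 and Pax4, named by the distance of the window centre from the gene start. Points are single libraries, 2 per group, and short lines are group means. The betaTC3 points of the windows inside Pdx1 and Mafa sit at 1269 to 1840, where alphaTC1 points sit at 0 to 11.9, while the window inside Nkx6-1 is at 698 to 1223 in all 6 libraries.

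Within betaTC3 the windows nearest the gene starts ordered as Pdx1 (1835 ± 8.29 scaled reads), Mafa (1498 ± 323), Nkx6-1 (1179 ± 61.7) and Pax4 (49.5 ± 0.0190; SD, n = 2). The means of Mafa and Nkx6-1 differed by less than the SD of Mafa. Both Pdx1 values lay above both of Mafa, by a gap in means close to that SD, and Pax4 lay far below the other 3. With the empty vector the order was Nkx6-1 (1099 ± 43.0), Mafa (5.96 ± 8.43), Pdx1 (2.65 ± 3.74) and Pax4 (0 in both libraries). The last 3 were within the SD of Mafa of one another.

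Called peaks also cover stretches without a window, and they placed Mafa with Nkx6-1 among the genes with a peak in alphaTC1. Peaks were called by the authors per library, and each carries the authors' own fold over local background and −log10 q-value. Of the 4 genes, 4 had a peak within 5 kb in both betaTC3 lists, beside 59.9% of RefSeq protein-coding genes. Mafa and Nkx6-1 had one in all 4 alphaTC1 lists, beside 58.2%, so that 2 of 4 is near the general share. Pdx1 and Pax4 had peaks in each betaTC3 list and lacked one in every alphaTC1 list, as did 3.31% of RefSeq protein-coding genes.

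At Pdx1 a single broad peak ran over the whole gene in betaTC3. It was 9480 bp wide in replicate 1 and 9913 bp in replicate 2, the 8th widest of 17129 peaks and the 9th widest of 18047. The median peak width in these lists was 1172 and 1167 bp. Their edges lay at -1996 and -2318 bp from the gene start and at 7483 and 7594 bp, past the end of the 5890 bp gene. Their fold was 26.3 and 20.5, and their −log10 q of 141 and 135 exceeded that of 74.7% and 80.3% of peaks in the same list. Within its list the Pdx1 peak stood out more by width than by −log10 q. The read level of the window inside the gene exceeded that of 99.2% and 99.8% of windows in the same libraries. Of the weaker peaks around it, one in replicate 1 lay 2264 bp upstream of the gene (fold 4.06) and one in replicate 2 lay 1786 bp downstream (fold 6.42). Just outside the 5 kb limit, at 5448 and 5441 bp upstream, both betaTC3 lists held a peak of fold 4.58, which the upstream window overlaps.

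Mafa had peaks in all 6 lists, of very different extent. In betaTC3 a peak of 3526 bp in replicate 1 and 3566 bp in replicate 2 (fold 32.9 and 33.5) covered 100% of the 2739 bp gene. A further 230 bp peak of fold 4.77 lay 163 bp from the gene, upstream, in replicate 2. In each alphaTC1 list a narrow peak sat at the start of Mafa, 256 and 267 bp wide in the empty-vector lists and 284 and 267 bp wide in the knockdown lists. The 4 narrow peaks had their edges at -13 to -9 bp and at 243 to 271 bp from the gene start (chromosome 15, 75747985 to 75748240 in empty-vector replicate 1), and covered 8.91 to 9.93% of the gene. Their fold was 14.5 and 13.5 in the first group and 9.36 and 12.3 in the second. Among peaks of at most 300 bp in the same list, 98.1 to 99.2% had a lower fold. Among all peaks they were weaker, with a fold below the median of each list (24.0 to 33.5). Their −log10 q exceeded that of 29.2 to 31.9% of peaks in the same list. The window inside Mafa does not overlap these narrow peaks, so its near-zero alphaTC1 values do not describe the gene start.

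Nkx6-1 was covered by broad peaks in every list, and these were wider in alphaTC1 than in betaTC3. The widest peak at the gene measured 7489 and 7906 bp in the empty-vector lists (26th and 30th widest in their lists), 9048 and 8503 bp after knockdown (27th in both), and 4983 and 6215 bp in betaTC3 (61st and 34th). In the 4 alphaTC1 lists peaks covered 100% of the 6858 bp gene, and in betaTC3 82.0% and 90.2%, with the uncovered bases toward the 3′ end. Counted over the gene and 5 kb on either side, peaks covered 8150 and 8322 bp in the empty-vector lists, 9483 and 9376 bp after knockdown, and 6166 and 6970 bp in betaTC3. The 3 groups did not overlap. Of 12192 RefSeq protein-coding genes with a peak in all 6 lists, 38.7% likewise had more bases covered in both knockdown lists than in both empty-vector lists, and 42.0% had fewer in both betaTC3 lists than in all alphaTC1 lists.

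Pax4 had only a weak peak at its start in betaTC3. It was 1047 bp wide in replicate 1 and 1257 bp in replicate 2, with a fold of 2.65 and 2.91, against a median fold of 25.1 and 22.1 in these lists. Its −log10 q of 1.55 and 2.04 exceeded that of only 0.105% and 0.299% of peaks, close to the lowest in each list (1.44 and 1.37). The peak was present in both lists at nearly the same place, starting 183 and 195 bp inside the gene.

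**Figure D2:**
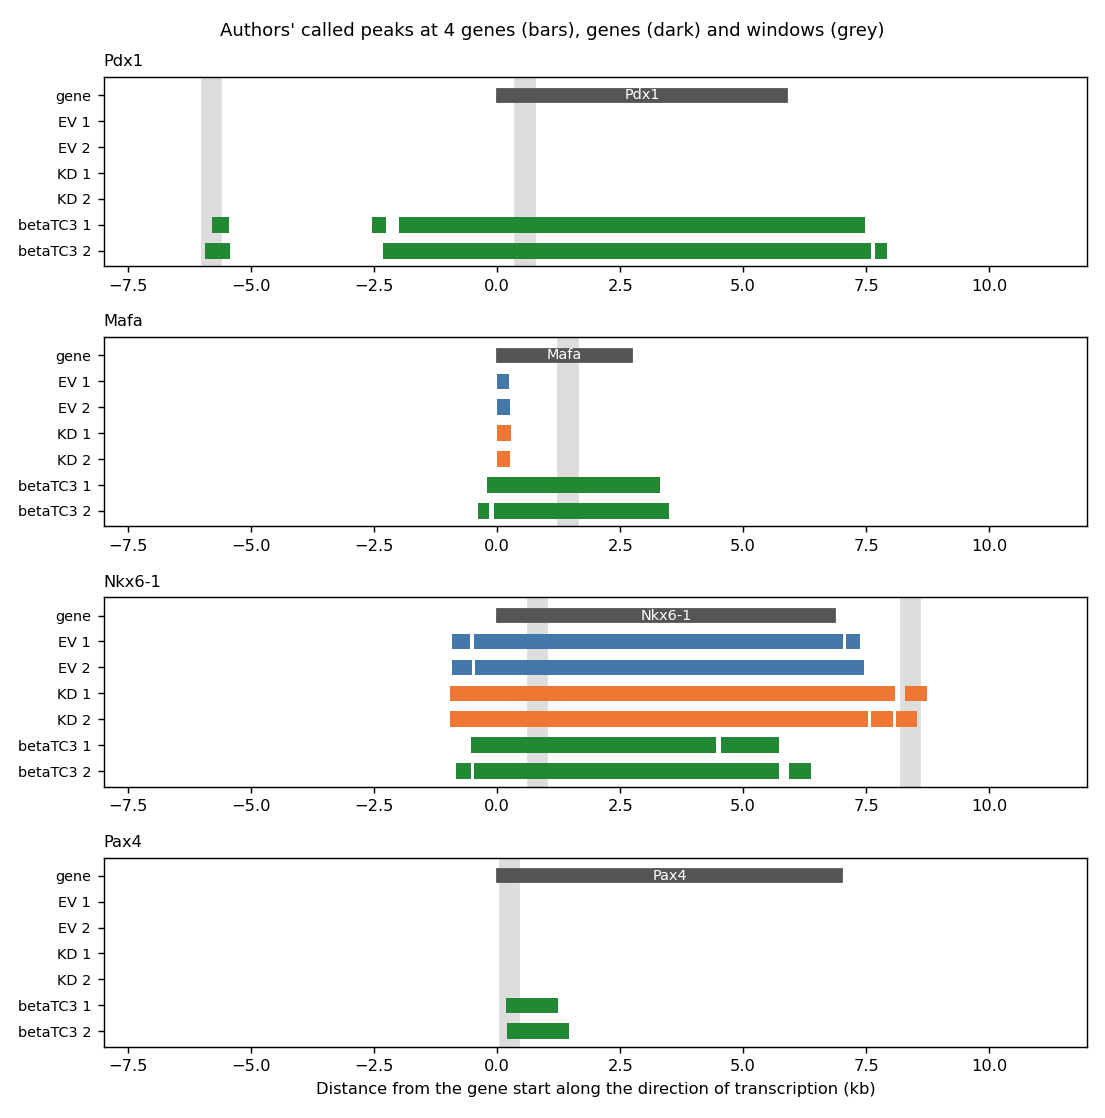
Called peaks (coloured bars) in each of the 6 lists at the 4 genes, by distance from the gene start in kb along the direction of transcription; dark bars are the genes and grey bands the windows of the deposited table. EV is the empty vector and KD the Smndc1 knockdown, and the distal Mafa window is outside the plotted range. Pdx1 and Pax4 have bars only in betaTC3, Mafa has bars of 256 to 284 bp in the 4 alphaTC1 lists, and Nkx6-1 is covered in all 6.

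The second comparison asked what changed in alphaTC1 cells after Smndc1 knockdown, and shares its empty-vector libraries with the first. None of the 7 member windows passed by limma, and 0.0% of all windows did in either direction. At an unadjusted p under 0.05 there were 2 of the 7 windows and 6169 of all 17641 (35.0%). By edgeR with its own scaling 0 of the 7 passed, where 0 of all windows did. By DESeq2 0 of the member windows with an adjusted p passed, where 10 of all windows did. DESeq2 gave no adjusted p for the Pax4 window or for the member windows outside their genes, so it did not test these. The libraries were shifted against each other, with a median log2 difference of -0.37 over all windows.

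The windows inside Pdx1, Mafa and Pax4 held 0 to 9 reads in each alphaTC1 library. In the window inside Pdx1 and in that inside Mafa both knockdown libraries had 0 reads, which at the floor allows up to 3.58 and 4.19 scaled reads per library. The empty-vector values there came from replicate 1 alone, and the differences did not pass (adjusted p = 0.238 and 0.231 by limma). Pax4 had 1 and 3 reads in the knockdown libraries and none with the empty vector, which is at the floor in both groups (adjusted p = 0.117 by limma). The upstream Pdx1 window held 7 reads with the knockdown and 2 with the empty vector, a pooled ratio of 4.24 (95% counting interval 0.808 to 41.8, adjusted p = 0.122 by limma).

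At Nkx6-1 both knockdown libraries lay below both empty-vector libraries within the gene, as in 64.6% of all windows, with a log2 difference of -0.43 (95% interval -0.87 to 0.01, adjusted p = 0.147 by limma). Relative to the shift of all windows the difference was near 0, at -0.06 with the libraries centred on their medians (adjusted p = 0.783 by limma). The window downstream of Nkx6-1 went the other way, with 23 and 19 reads in the knockdown libraries and 11 and 13 with the empty vector. Its log2 difference was 1.00 (95% interval -0.12 to 2.13), which did not pass (adjusted p = 0.166 by limma). The groups did not overlap, and in 6.85% of all windows both knockdown libraries likewise lay above both empty-vector libraries. A peak was called over that window in both knockdown lists, with fold 5.00 and 4.59, and in neither empty-vector list, as over 1.72% of all windows. Without knockdown replicate 2, limma called 6281 of all windows, and among the members Nkx6-1 inside the gene (-0.65, adjusted p = 0.0288) and Pax4 (1.13, adjusted p = 0.0395). That fit takes the spread of the lone knockdown library from the other groups.

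The third comparison set betaTC3 against the knockdown, and shares its betaTC3 libraries with the first and its knockdown libraries with the second. By limma 5 of the 7 windows were higher in betaTC3 and 1 lower, beside 36.6% of all windows higher, 24.0% lower and 60.6% in either direction. Without betaTC3 replicate 1 only 3 of the 7 and 6523 of all windows were called. Pdx1 inside the gene was at least 472-fold and Mafa at least 385-fold higher, both against the floor of 3 reads per library (adjusted p = 5.36e-05 and 0.000243 by limma). Pax4 was higher by a pooled ratio of 19.2 (95% counting interval 7.30 to 71.7, adjusted p = 0.000391 by limma), and the upstream Pdx1 window by 7.80 (3.62 to 20.0, adjusted p = 0.00502). The upstream Pdx1 call was lost without betaTC3 replicate 1 (adjusted p = 0.0708), without replicate 2 (adjusted p = 0.0733) and with a pseudocount of 0.1 (adjusted p = 0.106).

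Nkx6-1 was higher inside the gene by 0.53 in log2 (adjusted p = 0.0427 by limma) and lower in the downstream window, with a difference of -1.40 (adjusted p = 0.0385). Each of these calls was lost in 9 of 16 alternatives, with adjusted p from 0.00275 to 0.207 and from 0.00896 to 0.148. Among them, the call inside the gene was lost without knockdown replicate 1 (0.31, adjusted p = 0.0634) and the downstream call without betaTC3 replicate 1 (-0.71, adjusted p = 0.0937). The median log2 difference of all windows was 0.23, and with centred libraries both calls held (0.34 and -1.59, adjusted p = 0.00935 and 0.0309 by limma).

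**Figure D3:**
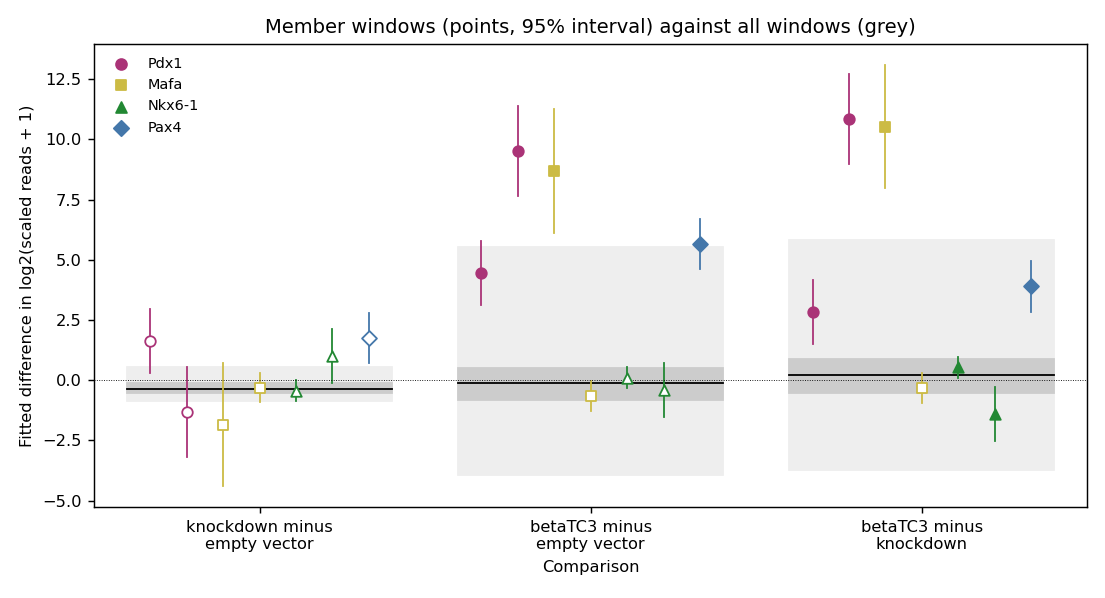
Fitted differences in log2(scaled reads + 1) of the 7 member windows in the 3 comparisons, with 95% intervals from limma; filled symbols passed at an adjusted p below 0.05. The black line is the median of all 17641 windows, the dark band their middle 50% and the light band their middle 90%. In the comparisons with betaTC3 the windows inside Pdx1 and Mafa lie at 8.69 to 10.84, and none of the 7 passed between knockdown and empty vector.

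The windows next to each gene showed whether the signal was shared with the neighbourhood. Pdx1 lies between Gsx1 and Cdx2, its partners in the ParaHox cluster of homeobox genes. The Gsx1 window, 76195 bp away, held 95.3 and 106 scaled reads with the empty vector and 254 and 286 in betaTC3. On the other side the adjacent window, 28633 bp away, belongs to Cdx2, an intestinal factor, and is centred 7717 bp from its start. It held 93.4 and 104 scaled reads in betaTC3 and 0 to 6.99 in the alphaTC1 libraries. The Cdx2 window nearest its own start, at 567 bp and not adjacent to Pdx1, held 583 and 527 in betaTC3 and 0 to 4.19 in alphaTC1. Mafa and Pax4 had neighbours with signal in both lines. Zc3h3, 94481 bp from the nearest Mafa window, held 1429 and 1380 scaled reads with the empty vector and 1380 and 1357 in betaTC3. Rhpn1, 26842 bp from the distal Mafa window on the other side, held 451 and 433 with the empty vector and 327 and 409 in betaTC3. Arf5, 24824 bp from the Pax4 window, held 1327 and 1408 with the empty vector and 1437 and 1203 in betaTC3. Snd1, 31122 bp from it on the other side, held 1544 and 1552 with the empty vector and 1390 and 1308 in betaTC3. The nearest window beyond Nkx6-1 on one side, at Cds1, held 143 and 89.5 in betaTC3 and at most 2.39 in alphaTC1, unlike Nkx6-1 itself.

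Windows within 1 kb of the start of other genes were ranked by their Euclidean distance to each member in log2(scaled reads + 1) over the 6 libraries, as a description. The 3 nearest to Pdx1 were Meox2 (distance 0.376), Cdh8 (1.25) and Pard3 (1.79), and the same 3 genes were nearest to Mafa (Pard3 1.35, Meox2 1.44, Cdh8 1.60). Meox2, a homeobox gene, held 1699 and 1694 scaled reads in betaTC3 and 3.97 and 0 with the empty vector. By this distance 4 of 11629 windows lay within 2 of Pdx1, and likewise 4 of Mafa. The few reads of Pdx1 and Mafa in empty-vector replicate 1 set these counts in part. Any window with 0 in that library lies beyond 2 from both, whatever its betaTC3 level, and the 3 nearest genes depend on those reads too. The nearest to Nkx6-1 were Psmb4 (0.0761), Shprh (0.0847) and Hnrnph3 (0.116), the first a proteasome subunit and the last an RNA-binding protein expressed widely, and 4560 windows lay within 2. For Pax4 they were Gm43809 (0.477), Gm11638 (0.488) and C1ql4 (0.857), with 39 within 2.

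Other genes of the same network were taken as the window nearest the gene start of each listed gene. Of 36 other islet transcription factors 29 had a window, and between betaTC3 and the empty vector 10 were higher, 11 lower and 8 not called by limma, with a median log2 difference of 0.16 against -0.13 for all windows. Of all windows 22.1% were higher and 33.2% lower. With centred libraries 15 of the 29 were higher and 10 lower, beside 34.3% and 31.9% of all windows. Those that differed most were Mlxipl, the glucose-responsive factor ChREBP, at 1496 ± 57.6 against 1.32 ± 1.87 scaled reads, and Nkx6-2, the paralog of Nkx6-1, at 822 ± 109 against 0.888 ± 1.26 (SD, n = 2). Those that differed least were Myt1 (739 ± 4.80 against 723 ± 36.4, in a window 4349 bp from the start) and Bach2 (397 ± 195 against 410 ± 43.1), neither called (adjusted p = 0.843 and 0.768 by limma).

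Target genes, which carry out insulin production and glucose sensing, were mostly higher in betaTC3. Of 30 listed genes 22 had a window, and 17 were higher, 0 lower and 5 not called, beside 22.1% of all windows higher and 33.2% lower. The median log2 difference was 4.74, or 3.80 with values below the floor set to it, against -0.13 for all windows on either basis. With centred libraries 18 were higher and 0 lower, beside 34.3% and 31.9% of all windows. Glp1r, the incretin receptor, held 554 ± 27.4 scaled reads in betaTC3 and 0 in both empty-vector libraries, and Sytl4, a granule protein also called granuphilin, 757 ± 16.2 against 0.888 ± 1.26. Cpe, a carboxypeptidase of prohormone processing, and Kcnj11, a subunit of the KATP channel, differed least, at 514 ± 48.8 against 526 ± 37.0 and 356 ± 85.5 against 340 ± 28.0 (adjusted p = 0.867 and 0.850 by limma).

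Alpha cell factors went the other way, with 6 of the 7 listed genes holding a window and all 6 lower in betaTC3, with either scaling. Of all windows 33.2% were lower, and 31.9% with centred libraries. Irx1 held 0.399 ± 0.565 scaled reads in betaTC3 and 1171 ± 26.7 with the empty vector, and Gcg 0 in both libraries and 346 ± 7.99. Among the smallest differences was that of Irx2 (278 ± 46.1 against 735 ± 11.5). Between knockdown and empty vector 0 of these 57 listed windows were called by limma, with a gene on 2 lists counted in each. The share over all windows was 0.0%.

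**Figure D4:**
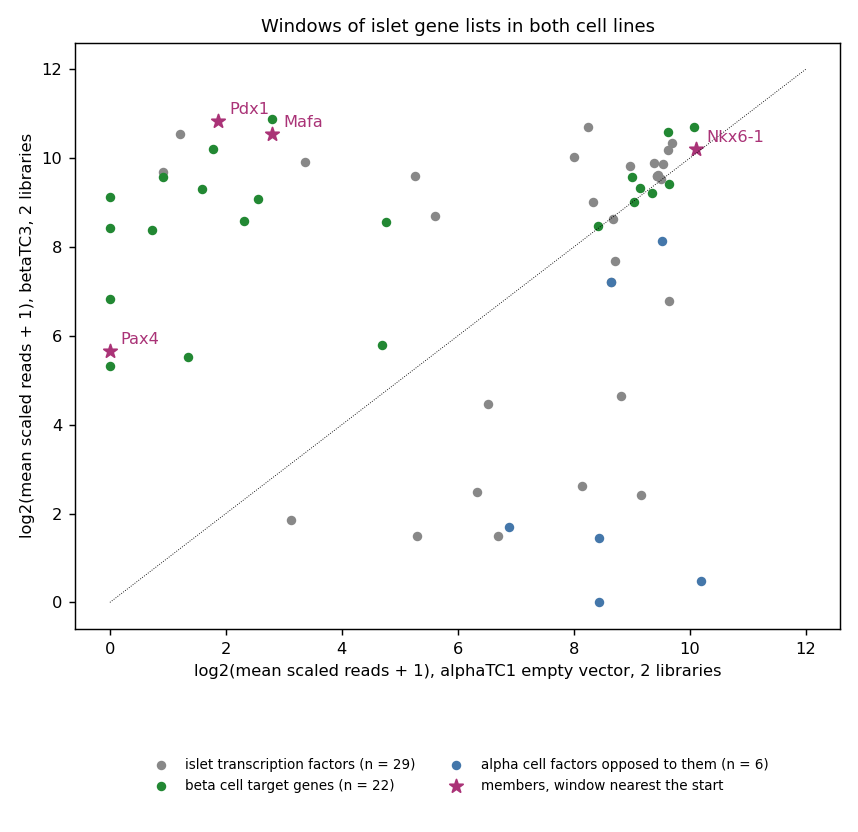
Mean level in betaTC3 against mean level in empty-vector alphaTC1, both as log2(mean scaled reads + 1) over 2 libraries, for the window nearest the start of each listed gene; stars are the 4 members and the dotted line marks equal levels. Pdx1, Mafa and Pax4 lie far above the line with many of the 22 target genes, Nkx6-1 lies close to the line of equal levels, and the 6 alpha cell factors lie below it.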

How the data were processed

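ChIP-seq was done on 6 libraries in 3 groups of 2, with 3 inputs, as 50 bp single reads, as the labels' protocols state. MACS2 2.2.7.1, Bowtie2 2.4.1 and Picard 2.19.2 are the tools, and mm10 (GRCm38) the build, in the submitters' processing notes. No source used here gives how windows were chosen and scaled, or whether input reads were taken off, so a value of 0 may mean no more reads than the input. The deposited signal of 17641 windows was in every library a whole multiple of 1 step (tolerance 0.001), so that 100% of values gave whole reads. The deposited peak lists, 1 per library and called against the input of its group per the peak names, hold the authors' score, a ratio (fold over background), and p and q as −log10.

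Limma 3.58.1 was fitted to log2(scaled reads + 1) of all windows and 6 libraries, with an intensity trend and Benjamini-Hochberg adjustment, after a test on simulated data. Alternatives used other pseudocounts (0.1 and 5), a mean of at least 10, centring, edgeR 4.0.16 or DESeq2 1.42.0 on the recovered reads, a replicate block and each library left out. Floors are 3 reads per library, and counting intervals are exact binomial at 95%. Both take the recovered reads as raw counts, and neither holds if input reads were taken off. Distances run from the window centre to the gene start of the deposited table. Fits ran in R 4.3.3, and tables and plots used matplotlib 3.10.9, scipy 1.17.1, numpy 2.4.6 and pandas 2.3.3 under Python 3.11.15. The members and gene lists were chosen with earlier results of these data known. Named list genes were the 2 of largest and the 2 of smallest difference between betaTC3 and empty vector in each list, of which 1 is not reported here. The neighbouring windows were chosen after the values were seen.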

Additional observations from a re-analysis of the deposited data

How the results depend on the processing

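Each of the 21 differences of a member window was refitted under up to 16 alternatives, which gave 296 results of unchanged direction and call, 21 that lost the call, 10 that gained it, 3 of another sign and 2 of exactly 0. The windows inside Pdx1 and Mafa and that of Pax4 kept their call and direction in both comparisons with betaTC3 under every alternative run, with adjusted p of at most 0.0378. The counts of member windows called were 4 to 6 between betaTC3 and empty vector without 1 library each, 3 to 5 between betaTC3 and knockdown, and 0 to 2 between knockdown and empty vector. With a pseudocount of 0.1 the last 2 were 3 and 1, the latter being Pax4 (4.56, adjusted p = 0.0365 by limma), which has 1 and 3 reads with the knockdown. The cause was not tested.

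Over all windows, knockdown against empty vector gave 335 calls with a pseudocount of 0.1, 163 without the trend, 83 by edgeR with the authors' scaling, 31 in a fit of only the 2 groups, 10 by DESeq2, and 0 to 6281 without 1 library each, the highest without knockdown replicate 2. Without 1 library each, 6983 to 10641 windows were called between betaTC3 and empty vector and 6523 to 11055 between betaTC3 and knockdown. The lowest of the latter was without betaTC3 replicate 1. The direction reversed for the distal Mafa window after knockdown (0.0699 when centred and 0.0895 by edgeR with its own scaling). Without 1 library each, the downstream Nkx6-1 difference between betaTC3 and empty vector ran from -1.08 to 0.30, reversed without betaTC3 replicate 1. The knockdown differences inside Pdx1 and Mafa ran from -2.65 and -3.69 to 0, the value without empty-vector replicate 1, which alone held alphaTC1 reads there.

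Restricted to peaks with a −log10 q at or above the median of their list, the peaks near Pdx1, Mafa, Nkx6-1 and Pax4 fell to 2, 2, 6 and 0. The genes with a peak then fell to 1 in each of the 4 alphaTC1 lists. No other distance or overlap changed these counts by over 1.5 times. Replicate numbers did not pair the libraries (correlations of same-numbered deviations -0.0079, 0.085 and -0.176). With the replicate number as a block 9152, 9891 and 0 windows were called in the comparisons of betaTC3 with empty vector, of betaTC3 with knockdown and of knockdown with empty vector, and 4, 4 and 0 member windows. The block ended both Nkx6-1 calls between betaTC3 and knockdown (adjusted p = 0.0665 inside the gene and 0.0550 downstream by limma) and changed no other member call. Within alphaTC1 both Pdx1 windows, the window inside Mafa and that of Pax4 held 0 to 9 reads per library, so that differences there rest on few reads.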

Other observations

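The narrow peak at the start of Mafa in alphaTC1 was used as a cutoff to find similar sites. Mafa is in that set by definition, and the size of the set follows from the fold of the Mafa peak. In the genome 7 sites, Mafa included, had a peak of at most 300 bp in all 4 alphaTC1 lists. At each the fold was at or above that of the Mafa peak in the same list. All 7 also held a peak in both betaTC3 lists, and 4 of them were again at most 300 bp wide in both. The Mafa site was the exception in width, with 3526 and 3566 bp in betaTC3. Besides Mafa, 1 of the sites overlapped a RefSeq protein-coding gene, Cfap46 (chromosome 7, 139659937 to 139660147). Of the 7 sites, 1 overlapped a window of the deposited table, and the Mafa site did not.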
